A study of Mus musculus with 22 samples.

Results

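A set of 10 transcripts used to describe resident and alternatively activated macrophages were followed across inguinal/mammary white adipose tissue (IWAT), namely Mrc1, Cd163, Lyve1, Folr2, Timd4, Clec10a, Mgl2, Retnla, Arg1 and Chi3l3. They were chosen by symbol, and all 10 were found among the 23420 genes of the count table, where Chi3l3 is the symbol of the gene now called Chil3. All 10 also passed the filter on low counts, as did 14458 genes in all. The libraries came from 11 wildtype female C57Bl/6 mice, of which 5 were lean on regular chow and 6 were obese after a high fat diet (HFD) with 60% of its kcal from fat, both kept on their diet for 16 weeks. At an age of about 20 weeks every mouse received E0771 cells, a breast cancer line derived from a C57Bl/6 mouse, in PBS and Matrigel in the left pad, which gave tumor-associated IWAT, and PBS with Matrigel and no cells in the right pad, which gave control IWAT, and both pads were collected 2 to 3 weeks later by the methods of the study, whose results text gives 2 weeks. The 4 groups were thus lean control (n = 5), lean tumor-associated (n = 5), obese control (n = 6) and obese tumor-associated IWAT (n = 6), with 1 library per pad and mouse. The pads were whole tissue from which the inguinal lymph node, the fat sheet over the tumor and the outermost fat had been dissected away, and every group carried Matrigel, so that no pad was untreated.

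Macrophages that live in a tissue and macrophages that arrive from blood monocytes share pan-macrophage genes such as Emr1 (F4/80), but differ in the receptors and enzymes that they express. Resident macrophages around vessels typically carry scavenger and uptake receptors such as CD206, CD163, LYVE1, folate receptor beta and TIM-4, whereas the cytokines IL-4 and IL-13 act through the receptor chain Il4ra and the transcription factor Stat6 to induce secreted and metabolic products such as RELM-alpha (Retnla), Ym1 (Chi3l3) and arginase 1, together with the galactose-type lectins encoded by Clec10a and Mgl2. In bulk tissue, fewer cells of a type and less RNA per cell cannot be told apart.

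Depth ranged from 5759775 to 8598108 counts on genes in a library. Levels are given as CPM, counts scaled to a common library size after TMM normalization, and differences as log2 fold changes with their standard error (SE) from edgeR's quasi-likelihood test on all 22 libraries, with p-values adjusted by Benjamini-Hochberg over the 14458 genes and a threshold of 0.05. The SE was derived as the absolute log2 fold change divided by the square root of the F statistic of that test. The defining macrophage gene Emr1 was present in every library, at 52.4 to 119 CPM in control and 118 to 419 CPM in tumor-associated IWAT, and the adipocyte gene Adipoq at 169 to 2785 CPM. On the first principal component the obese tumor-associated libraries lay apart, at 27.2 to 148 against at most 1.32 in the 16 other libraries, and the libraries of obese mice 0 and 4 lay farthest out. Obese tumor-associated IWAT of mouse 4 also had the lowest level of its group for all 10 genes, and values without such libraries are given where they change a call.

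Stretches of promoter and a pair of coding stretches are shown, because they hold what the products have and lack in common. Promoter sequences of RefSeq on GRCm38.p6 were found for 7 of the 10 genes, and the 250 bases before the start were searched on both strands for TTCNNNNGAA, the spacing that STAT6 binds, for TTCNNNGAA, the spacing of other STAT proteins, and for GAGGAA, the core that the macrophage factor PU.1 binds. The 3 promoters below are given 5′ to 3′ on the strand of the gene with matches in capitals. Retnla (chr16:48842359-48842608, plus strand) was the only one of the 7 with TTCNNNNGAA, which began 145 bases before the start, and it also held GAGGAA read on the other strand. Chi3l3 (chr3:106167565-106167814, minus strand) was the only one with TTCNNNGAA, 172 bases before the start. Mrc1 (chr2:14229164-14229413, plus strand) held GAGGAA 3 times, each on the other strand and thus as TTCCTC. The start is that of the promoter sequence. For Retnla and Mrc1 it lies past the first base of the gene in GENCODE M21, 48842551 and 14229392, so that the last bases shown lie within the gene.
Retnla promoter: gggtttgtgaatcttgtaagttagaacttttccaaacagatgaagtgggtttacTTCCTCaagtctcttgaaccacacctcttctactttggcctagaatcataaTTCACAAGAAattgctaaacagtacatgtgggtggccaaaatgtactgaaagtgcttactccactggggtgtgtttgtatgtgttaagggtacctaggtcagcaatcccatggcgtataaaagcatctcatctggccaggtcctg
Chi3l3 promoter: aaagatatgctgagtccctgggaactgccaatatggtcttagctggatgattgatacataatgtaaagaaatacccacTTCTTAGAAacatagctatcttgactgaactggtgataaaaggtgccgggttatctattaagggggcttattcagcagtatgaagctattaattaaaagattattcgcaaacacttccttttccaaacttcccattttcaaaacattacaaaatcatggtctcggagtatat
Mrc1 promoter: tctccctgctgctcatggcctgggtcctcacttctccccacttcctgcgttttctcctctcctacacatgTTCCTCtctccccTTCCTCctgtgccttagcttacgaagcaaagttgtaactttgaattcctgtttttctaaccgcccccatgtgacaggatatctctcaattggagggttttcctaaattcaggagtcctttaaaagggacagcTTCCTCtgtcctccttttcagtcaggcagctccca
Of all 32851 promoters in the same table, 5.85% held TTCNNNNGAA, 7.02% TTCNNNGAA and 23.3% GAGGAA in a window of this length, so that each match is a description of the letters only.

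Clec10a (chr11:70156197-70170834) and Mgl2 (chr11:70130329-70137550) are neighbours on chromosome 11 of GRCm38 and near copies of each other. Their coding sequences in GENCODE M21 were 92.6% identical over 894 aligned positions, with a longest identical run of 183 bases. Of the 50-base stretches of their transcripts, 9.02% of those of Clec10a and 13.1% of those of Mgl2 also occur in other genes, mostly in each other. Among stretches of 90 aligned bases without a gap, the one with the most differences held 8 of them, which are in capitals.
Clec10a coding stretch: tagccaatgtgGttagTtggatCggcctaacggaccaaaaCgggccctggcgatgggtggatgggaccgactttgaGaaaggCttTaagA
Mgl2 coding stretch: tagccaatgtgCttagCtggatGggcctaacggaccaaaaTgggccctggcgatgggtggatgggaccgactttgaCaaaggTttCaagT
Reads within the shared stretches cannot be assigned to one gene, so the levels of this pair are less certain than those of the receptors. Chi3l3 had more shared sequence, 26.9% of its 50-base stretches, mostly with its relative Chi3l4. However, Chi3l4 had at most 1 count in any of the 22 libraries. The relatives Retnlb, with at most 2 counts, and Retnlg, with at most 4, were also close to the limit of detection.

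Tumor-associated IWAT had higher levels of the endocytic receptor gene Mrc1 (CD206, the mannose receptor), of the hyaluronan receptor Lyve1, of the folate receptor Folr2, of the lectin Clec10a and of the chitinase-like Chi3l3 than control IWAT, both in lean and in obese mice, by 1.91-fold to 8.35-fold. In contrast, Retnla, Arg1, Timd4, Mgl2 and Cd163 did not pass the test in either diet. Thus 5 of 10 genes were called, all higher, in lean mice, where 4.18% of all genes tested were called in either direction. In obese mice 5 of 10 were called as well, again all higher, but there 54.5% of all genes were called, so that this share is no higher than that of the table. Over the 10 genes the median log2 fold change came to 1.25 in lean mice and to 1.15 in obese mice, beside 0.01 and -0.02 over all genes tested.

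**Figure D1:**
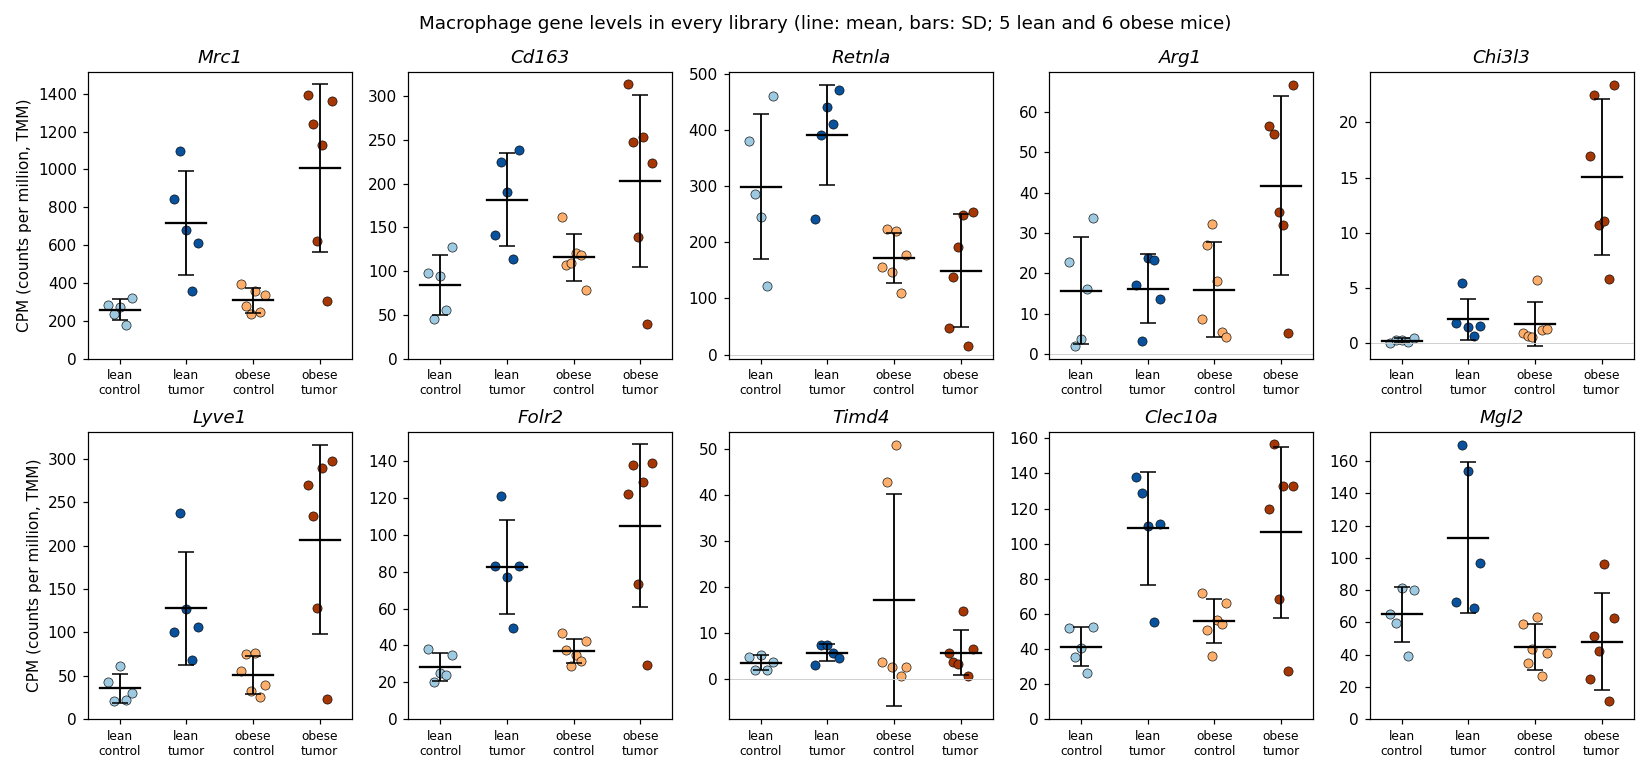
Level of each of the 10 genes in CPM (y axis, linear and different for each gene) in every library of the 4 groups (x axis), with a line for the group mean and bars for the SD. Mrc1 spans 179 to 323 CPM in lean control and 306 to 1393 CPM in obese tumor-associated IWAT, whereas Timd4 is high in 2 obese control libraries, at 42.8 and 50.9 CPM.

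Mrc1 (chr2:14229392-14332057) was the most abundant of the receptor genes. Its level in lean mice 0, 2, 3, 6 and 9 was 285, 234, 276, 179 and 323 CPM in control IWAT and 845, 1096, 680, 358 and 612 CPM in tumor-associated IWAT. In obese mice it ranged from 237 to 395 CPM with a median of 307 CPM in control IWAT, and from 306 to 1393 CPM with a median of 1184 CPM in tumor-associated IWAT. Each lean tumor-associated library thus lay above each lean control library, as for 5 of the 10 genes and 5.33% of all genes tested, whereas in obese mice the groups overlapped through mouse 4 alone, and only Chi3l3 of the 10 was free of overlap (9.95% of all genes tested). Mrc1 differed between the pads by a log2 fold change of 1.47 (SE 0.33, adjusted p = 0.0146 by edgeR) in lean mice and 1.71 (SE 0.30, adjusted p = 0.000165 by edgeR) in obese mice, with a rise in 5 of 5 and 6 of 6 mice. The lean call was lost without lean control mouse 6 (edgeR adjusted p = 0.0543) and without lean tumor-associated mouse 2 (edgeR adjusted p = 0.0733).

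Folr2 (chr7:101839988-101857194), whose product takes up folate and marks resident macrophages, was lower in level than Mrc1. In lean mice 0, 2, 3, 6 and 9 it was at 38.2, 20.1, 24.8, 23.8 and 34.9 CPM in control and at 83.0, 121, 77.4, 49.4 and 83.4 CPM in tumor-associated IWAT. The obese control libraries held 29.0 to 46.8 CPM (median 36.1) and the obese tumor-associated libraries 29.6 to 139 CPM (median 126). The lean groups did not overlap, and in obese mice mouse 4 was the only one without a rise. This gave Folr2 a log2 fold change of 1.54 (SE 0.32, adjusted p = 0.0078 by edgeR) in lean mice and 1.51 (SE 0.29, adjusted p = 0.000292 by edgeR) in obese mice, and Folr2 was called under all 31 alternatives in both diets. An exon of Folr2 overlaps the gene Gm10602 on the other strand. The strand setting of the counting is not given in the sources used here, so how reads within this overlap were counted is not known.

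Lyve1 (chr7:110850607-110863239) encodes a hyaluronan receptor that is carried by perivascular macrophages and also by lymphatic endothelium. Its level was 42.8, 21.3, 60.9, 22.5 and 30.2 CPM in control IWAT of lean mice 0, 2, 3, 6 and 9, and 100, 237, 127, 67.8 and 106 CPM in their tumor-associated IWAT. In obese mice it was 25.0 to 76.0 CPM (median 47.5) in control and 23.4 to 297 CPM (median 252) in tumor-associated IWAT, where mouse 4 held the lowest value. For Lyve1, the pads differed by a log2 fold change of 1.84 (SE 0.50, adjusted p = 0.0413 by edgeR) in lean mice and 2.03 (SE 0.46, adjusted p = 0.00111 by edgeR) in obese mice. The lean call was close to the threshold: with 1 of the 22 libraries left out it was kept in 10 fits, lost without any single lean control library, without lean tumor-associated mouse 0, 2, 3 or 9, and narrowly without obese control mouse 0 or obese tumor-associated mouse 0 or 1, with edgeR adjusted p-values of 0.00575 to 0.179. Of the 6 lymphatic endothelial genes tested, none was called in lean mice, and in obese mice Pdpn was higher and Flt4, a lymphatic growth factor receptor, was lower (log2 fold change -0.72, SE 0.27, adjusted p = 0.0286 by edgeR). The 8 genes of this list, of which 1 was at 0 in each group, summed to 70.1 to 138 CPM in lean control, 110 to 154 CPM in lean tumor-associated, 43.7 to 105 CPM in obese control and 18.8 to 146 CPM in obese tumor-associated IWAT, with Prox1, which defines lymphatic identity, at 0.406 to 9.62 CPM. The part of lymphatic cells in the Lyve1 level was not tested.

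Clec10a, the galactose-type lectin whose copy is Mgl2, was at 51.8, 35.5, 40.3, 26.0 and 52.7 CPM in control and at 138, 129, 110, 55.5 and 111 CPM in tumor-associated IWAT of lean mice 0, 2, 3, 6 and 9. In obese mice it was 35.9 to 71.6 CPM (median 55.4) in control and 27.5 to 157 CPM (median 127) in tumor-associated IWAT. The lean groups did not overlap and the obese groups did. The log2 pad difference of Clec10a was 1.39 (SE 0.34, adjusted p = 0.0233 by edgeR) in lean mice and 0.93 (SE 0.31, adjusted p = 0.0147 by edgeR) in obese mice. The lean call was lost without lean control mouse 2, 3 or 6 or lean tumor-associated mouse 0 or 2, with edgeR adjusted p-values of up to 0.0875.

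Chi3l3 (chr3:106147554-106167564), a chitinase-like protein secreted by alternatively activated macrophages and also made by monocytes and neutrophils, had the lowest level of the 10 genes per kilobase of exon in every group but obese tumor-associated IWAT, where Timd4 was lower (2.66 against 9.23 CPM per kb). Lean control IWAT of mice 0, 2, 3, 6 and 9 held 0, 2, 2, 1 and 3 counts, and the tumor-associated pads of these mice 12, 35, 11, 5 and 10 counts. A count of 0 in mouse 0 allows up to 3 counts, or 0.348 CPM. The obese libraries held 5 to 46 counts in control and 43 to 174 counts in tumor-associated IWAT, which is 0.62 to 5.75 CPM (median 1.10) and 5.82 to 23.4 CPM (median 14.0). All 4 comparisons of groups were free of overlap, also by diet. Of all genes tested, 5.33% in lean and 9.95% in obese mice were higher without overlap in the tumor-associated pads. Such a share was not counted for the diet comparisons. In control IWAT the diets were parted only by 0.509 CPM (3 counts) in lean and 0.62 CPM (5 counts) in obese mice. The gap in tumor-associated IWAT was also narrow, between 5.44 CPM (35 counts) in lean mouse 2 and 5.82 CPM (43 counts) in obese mouse 4. Chi3l3 differed between the pads by a log2 fold change of 3.01 (SE 0.80, adjusted p = 0.0361 by edgeR) in lean mice and 3.06 (SE 0.56, adjusted p = 0.000211 by edgeR) in obese mice. With the mouse as a block the lean call was lost (log2 fold change 2.91, adjusted p = 0.0562), and it was also lost without lean control mouse 0, 2, 3 or 6 or lean tumor-associated mouse 0, 2 or 3, with edgeR adjusted p-values of up to 0.173. Of the 3 neutrophil genes tested, Csf3r was higher in both diets (1.34 and 1.60) and S100a8 and Ltf were not called, and the defining genes S100a8 and S100a9 had their highest level, 5.44 and 5.13 CPM, in lean tumor-associated mouse 2, the library that was also highest of its group in Chi3l3, and at most 0.772 CPM in the other lean tumor-associated libraries. Mean S100a8 in obese mice was 2.08 CPM in control and 0.998 CPM in tumor-associated IWAT, and mean S100a9 0.475 and 0.956 CPM. The 11 neutrophil genes summed to 146 to 335 CPM in lean control and 145 to 434 CPM in lean tumor-associated IWAT. In obese mice they summed to 78.3 to 161 CPM in control and 37.7 to 181 CPM in tumor-associated IWAT. Only 3 of these 11 genes passed the filter on low counts, and S100a8 and S100a9 reached at most 5.44 and 5.13 CPM. The sums thus rest on few genes of the list and are no measure of neutrophils by themselves. The summed level of the 10 monocyte genes, of which Chi3l3 is one, was 1111 to 2075 CPM in lean control, 3104 to 3886 CPM in lean tumor-associated, 982 to 1429 CPM in obese control and 939 to 4021 CPM in obese tumor-associated IWAT. The part of neutrophils and monocytes in the Chi3l3 level was not tested.

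Cd163 (chr6:124304656-124330527), the haemoglobin scavenger receptor, had higher means in tumor-associated IWAT but did not pass the test. It was at 98.1, 45.0, 94.3, 56.0 and 128 CPM in lean control and at 141, 225, 190, 114 and 238 CPM in lean tumor-associated IWAT of mice 0, 2, 3, 6 and 9, with a higher value in 5 of 5 mice. In obese mice the range was 78.1 to 162 CPM (median 113) in control and 40.2 to 314 CPM (median 236) in tumor-associated IWAT. This gave Cd163 a log2 fold change of 1.11 (SE 0.38, adjusted p = 0.115 by edgeR) in lean mice and 0.81 (SE 0.34, adjusted p = 0.0504 by edgeR) in obese mice. Without obese tumor-associated mouse 4 both passed the threshold (edgeR adjusted p = 0.0198 and 0.00307), and DESeq2 called the obese difference (adjusted p = 0.0368), as did the fits without lean control mouse 2 or 9, lean tumor-associated mouse 6, obese control mouse 0 or obese tumor-associated mouse 2, with edgeR adjusted p-values of 0.0395 to 0.0496. The lean difference was also called when only the lean libraries were fitted (edgeR adjusted p = 0.0369).

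Mgl2 was at 65.0, 59.3, 81.3, 38.9 and 79.8 CPM in lean control and at 72.7, 170, 154, 69.1 and 97.0 CPM in lean tumor-associated IWAT of mice 0, 2, 3, 6 and 9. In obese mice it was 26.4 to 63.5 CPM (median 42.3) in control and 11.0 to 96.3 CPM (median 46.7) in tumor-associated IWAT. The values overlapped in both diets, although they were higher in the tumor-associated pad of 5 of 5 lean mice. For Mgl2, the pads differed by a log2 fold change of 0.79 (SE 0.40, adjusted p = 0.339 by edgeR) in lean mice and 0.11 (SE 0.37, adjusted p = 0.823 by edgeR) in obese mice.

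Retnla (chr16:48842551-48844461) encodes RELM-alpha, a secreted product of alternative activation that is also made by other cells of adipose tissue. Per kilobase of exon it had the highest level of the 10 genes in every group, at 499 CPM per kb in lean control against 40.7 CPM per kb for Mrc1, the next in order. Its level was 381, 287, 245, 122 and 461 CPM in lean control and 241, 391, 442, 411 and 471 CPM in lean tumor-associated IWAT of mice 0, 2, 3, 6 and 9. In obese mice it was 110 to 224 CPM (median 167) in control and 15.7 to 254 CPM (median 165) in tumor-associated IWAT. The log2 pad difference of Retnla was 0.39 (SE 0.48, adjusted p = 0.863 by edgeR) in lean mice and -0.21 (SE 0.44, adjusted p = 0.711 by edgeR) in obese mice.

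Timd4 (chr11:46810800-46844332), which encodes the phosphatidylserine receptor TIM-4, was low in most libraries. It was at 4.88, 2.10, 5.36, 1.94 and 3.73 CPM in lean control and at 3.18, 7.46, 7.47, 5.79 and 4.63 CPM in lean tumor-associated IWAT of mice 0, 2, 3, 6 and 9. In obese control IWAT it was 0.767 to 50.9 CPM with a median of 3.24 CPM, since mice 1 and 3 held 42.8 and 50.9 CPM, and in obese tumor-associated IWAT it was 0.676 to 14.8 CPM with a median of 4.68 CPM. Timd4 differed between the pads by a log2 fold change of 0.65 (SE 0.87, adjusted p = 0.884 by edgeR) in lean mice and -1.58 (SE 0.77, adjusted p = 0.0884 by edgeR) in obese mice. The obese difference passed the threshold without obese control mouse 4 (edgeR adjusted p = 0.0402) or obese tumor-associated mouse 3 (edgeR adjusted p = 0.0349), and turned to 1.22 (edgeR adjusted p = 0.0786) without obese control mice 1 and 3. In both libraries the 8 B cell genes of a list summed to 756 and 672 CPM, against 2.92 to 16.4 CPM in the other obese controls, and obese tumor-associated mouse 3, with 14.8 CPM of Timd4, held 167 CPM. Cd209b, a receptor of macrophages in lymphoid tissue, was among the 3 genes most like Timd4. The part of lymphoid tissue in the Timd4 level was not tested.

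Arg1 (chr10:24915221-24927484), the arginase that competes with nitric oxide synthase for arginine, is also abundant in liver. It was at 22.9, 2.10, 3.68, 16.2 and 33.7 CPM in lean control and at 17.1, 3.26, 23.9, 23.4 and 13.7 CPM in lean tumor-associated IWAT of mice 0, 2, 3, 6 and 9. In obese mice it was 4.15 to 32.2 CPM (median 13.4) in control and 5.28 to 66.7 CPM (median 45.0) in tumor-associated IWAT. This gave Arg1 a log2 fold change of 0.05 (SE 0.70, adjusted p = 0.996 by edgeR) in lean mice and 1.38 (SE 0.63, adjusted p = 0.0703 by edgeR) in obese mice. Liver genes varied between the libraries within each group, with Alb, the gene of serum albumin, at 24.4 to 2664 CPM. The summed level of the 6 hepatocyte genes, of which 1 was at 0 in each group, was 26.6 to 2152 CPM in lean control, 25.0 to 1701 CPM in lean tumor-associated, 72.6 to 2817 CPM in obese control and 145 to 3155 CPM in obese tumor-associated IWAT, and none of the 5 that were tested was called in any comparison. The 3 genes most like Arg1 were Ugt2b36, Akr1c6 and Hamp2, with Pearson's r of 0.85 to 0.87, all known from liver. With the mean level of the hepatocyte genes as a covariate, an alternative chosen after seeing the data, the obese difference passed the threshold (log2 fold change 1.51, adjusted p = 0.0083 by edgeR), and it did so as well without obese tumor-associated mouse 4 (edgeR adjusted p = 0.0281) or obese control mouse 2 (edgeR adjusted p = 0.0398). The highest Arg1 levels, in obese tumor-associated mice 0 and 8, were 56.6 and 66.7 CPM at 145 and 950 CPM of hepatocyte genes.

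**Figure D2:**
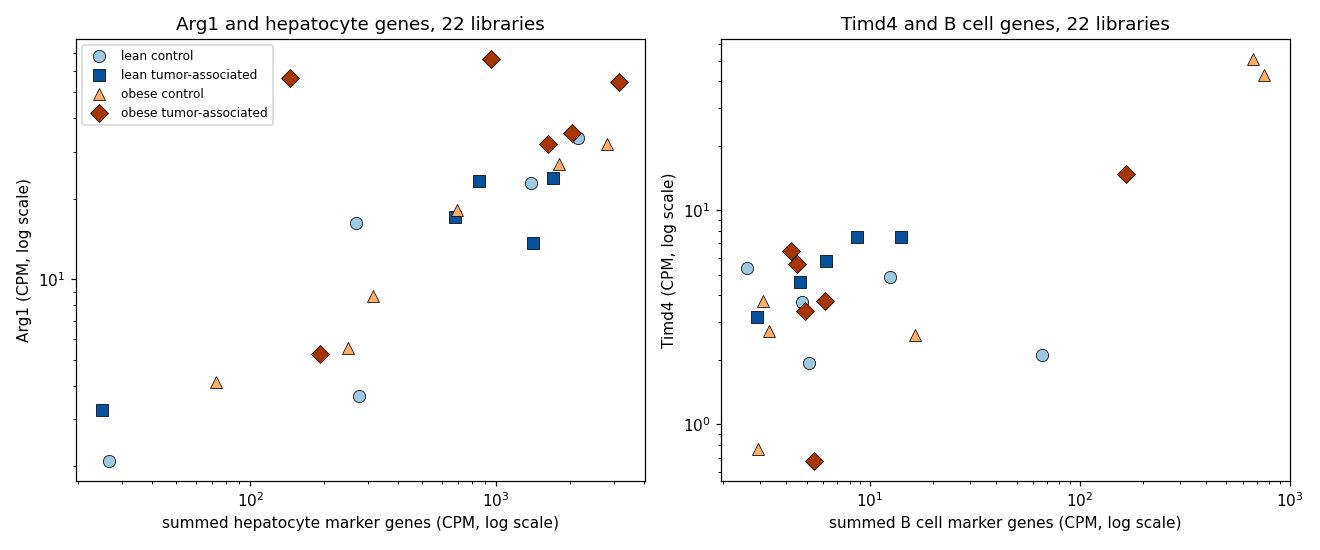
Left, level of Arg1 against the summed level of 6 hepatocyte genes, and right, level of Timd4 against the summed level of 8 B cell genes, both in CPM on log scales, with 1 point for each of the 22 libraries and a shape for each group. Arg1 is at 2.10 to 4.15 CPM in the 3 libraries with the fewest hepatocyte transcripts and at 56.6 CPM in obese tumor-associated mouse 0, the next in order, and the 3 highest Timd4 values, 14.8 to 50.9 CPM, lie in the 3 libraries with the most B cell transcripts.

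**Figure D3:**
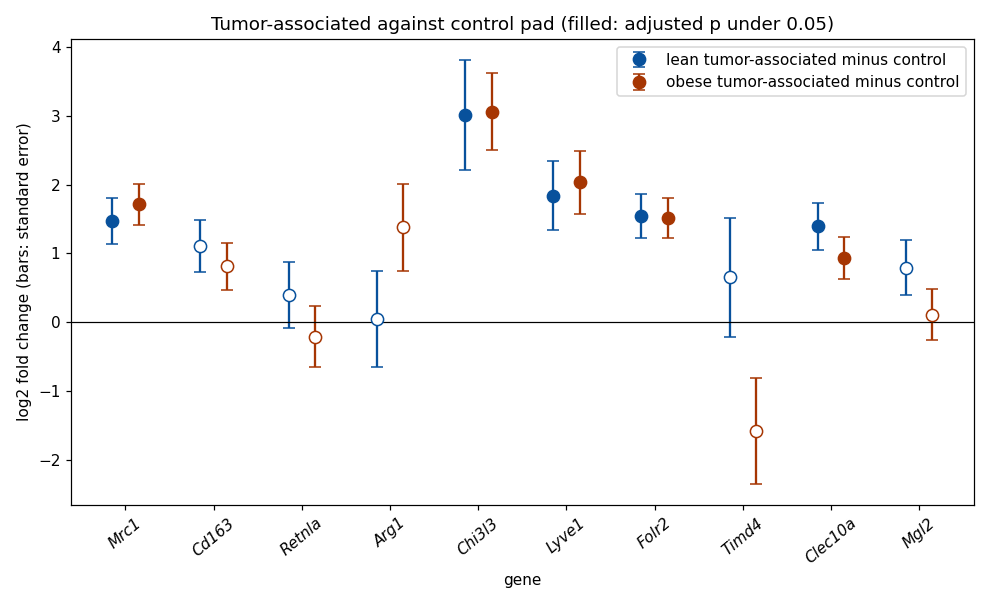
Log2 fold change between the pads, tumor-associated minus control (y axis), for each gene (x axis) in lean and obese mice, with bars for the standard error and filled points for an adjusted p under 0.05. Mrc1, Chi3l3, Lyve1, Folr2 and Clec10a are filled in both diets, and the obese values of Retnla and Timd4 lie below 0.

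None of the 10 genes was called for a difference between the obese and the lean tumor change, where edgeR called 4.92% of all genes. None had an unadjusted p under 0.05 either, and DESeq2 called none. The closest was Timd4, at -2.23 (SE 1.17, adjusted p = 0.185 by edgeR), followed by Arg1 at 1.32 (SE 0.94, adjusted p = 0.324 by edgeR). The SEs of 0.42 to 1.17 of the 9 genes other than Chi3l3 show that only large differences could have been found. Chi3l3 is left out because its derived SE, 1.84 at a change of 0.05, was far above its pad SEs of 0.80 and 0.56.

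The diet comparisons set obese against lean IWAT of the same kind. In control IWAT only Chi3l3 was called, by 2.74 (SE 0.79, adjusted p = 0.0206 by edgeR), where 17.1% of all genes were called, and this was lost without lean control mouse 0 (edgeR adjusted p = 0.0574), lean control mouse 6 (edgeR adjusted p = 0.053) or obese control mouse 3 (edgeR adjusted p = 0.0831). Timd4 differed by 2.25 (SE 0.86, adjusted p = 0.0754 by edgeR), which DESeq2 called (adjusted p = 0.026) as did edgeR without obese control mouse 2 or 4 (adjusted p = 0.0467 and 0.0368), and by -0.57 without obese control mice 1 and 3. In tumor-associated IWAT 3 of 10 genes were called, while 47.0% of all genes were. Chi3l3 was higher in obese mice by 2.79 (SE 0.59, adjusted p = 0.000805 by edgeR). Retnla was lower, at -1.39 (SE 0.46, adjusted p = 0.018 by edgeR) and Mgl2 at -1.23 (SE 0.38, adjusted p = 0.0122 by edgeR), where mean Retnla was 391 ± 89.1 CPM (SD) over the 5 lean and 149 ± 101 CPM (SD) over the 6 obese libraries, and mean Mgl2 was 113 ± 46.8 CPM (SD) and 48.1 ± 30.0 CPM (SD). Both were lost when the fit held only the libraries compared (edgeR adjusted p = 0.063 and 0.0516). Retnla and adipocyte genes were lowest in the same libraries, of obese mice 4 and 0, where the 10 adipocyte genes summed to 2427 and 3528 CPM against 7319 to 11678 CPM in the other obese tumor-associated libraries. Mgl2 was lowest there too, at 11.0 and 24.9 CPM. In lean control IWAT the order was the opposite. Mouse 6 had the highest adipocyte sum, 54104 CPM, and the lowest Retnla, 122 CPM. Mouse 9 had the lowest sum, 25173 CPM, and the highest Retnla, 461 CPM. After subtraction of the group means, Pearson's r with the mean of the adipocyte genes was 0.65 for Retnla and 0.56 for Mgl2. The part of adipocytes in the Retnla level was not tested. Without obese tumor-associated mouse 4, Mrc1 (0.68), Lyve1 (0.93), Folr2 (0.54) and Arg1 (1.58) were also called higher in obese mice, with edgeR adjusted p-values of 0.0355 to 0.049, so that 7 of 10 genes were then called, while 43.7% of all genes were called in that fit.

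Of 15 pan-macrophage genes, with Emr1, Cd68 and Itgam among them, 12 were called higher in tumor-associated IWAT of lean and 13 of obese mice and none lower, and Cd14 and Mertk were called in neither diet. Of all 14458 genes tested, 4.18% were called in either direction in lean and 54.5% in obese mice, with 473 and 3879 of them higher. The 15 pan-macrophage genes had a median of 1.28 in lean and of 1.43 in obese mice on the log2 scale, and Fcgr1, an activating Fc receptor, had the largest, 2.48 and 3.31. To compare each of the 10 genes with these, the mean log2 CPM of the 15 genes was subtracted from its log2 CPM in each library, and the tumor-associated minus the control value was taken per mouse and tested by an exact permutation of signs over the mice (two-sided), whose smallest possible p is 0.0625 for 5 and 0.0312 for 6 mice. With 20 such tests, p-values are given unadjusted and no lean result could pass 0.05.

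In obese mice the change of Cd163, Retnla, Timd4, Clec10a and Mgl2 between the pads lay below that of the pan-macrophage genes in 6 of 6 mice, and of these 5 genes edgeR had called only Clec10a as higher. The mean relative change was -0.80 ± 0.82 for Cd163, -2.08 ± 1.25 for Retnla, -1.93 ± 1.87 for Timd4, -0.63 ± 0.68 for Clec10a and -1.52 ± 0.78 for Mgl2 (log2, SD, n = 6, exact permutation p = 0.0312 for each, the smallest possible). Without obese mouse 4 the value was -0.48 for Cd163 and -0.39 for Clec10a, and without obese mouse 1, whose control library was high in B cell genes, it was -1.30 for Timd4, still negative in 5 of 5 mice each. The control library of obese mouse 3 was high in B cell genes as well. Relative Timd4 changed by -5.10 and -3.34 in obese mice 1 and 3, against -1.06 to -0.45 in the other obese mice. In contrast, Mrc1, Lyve1 and Folr2 changed by 0.17 ± 0.39, 0.38 ± 0.82 and -0.04 ± 0.50 (log2, SD, n = 6, exact permutation p of 0.312 to 0.906), with both signs among the mice. Chi3l3 rose more than the pan-macrophage genes in 5 of 6 obese mice, by 1.72 ± 1.31 (exact permutation p = 0.0625, n = 6), and in 5 of 5 lean mice, by 0.80 ± 0.70 (exact permutation p = 0.0625, n = 5). With Emr1 alone as the reference, Cd163 in obese mice missed the threshold (-0.90, exact permutation p = 0.0625).

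Clec10a showed opposite signs in the diets. Its relative change was 0.04, 0.23, 0.12, 0.10 and 0.54 in lean mice 0, 2, 3, 6 and 9, and -0.86, -0.07, -0.05, -0.36, -1.86 and -0.61 in obese mice 0, 1, 2, 3, 4 and 8. The obese minus the lean mean was -0.84 (two-sided exact permutation p = 0.013 over 462 divisions of the mice). The relative change of its copy Mgl2 was negative in every mouse, from -1.22 to -0.10 in lean and from -2.84 to -0.99 in obese mice, and differed between the diets by -1.09 (exact permutation p = 0.0281). These 2 of 10 diet differences had an unadjusted p under 0.05, and neither gene was called for this difference by edgeR before the reference was subtracted. Without the reference, the same permutation gave -0.61 for Clec10a (exact permutation p = 0.154) and -0.87 for Mgl2 (exact permutation p = 0.113). With 1 mouse left out, p ranged from 0.00794 to 0.0381 for Clec10a and from 0.00952 to 0.0714 for Mgl2, with the highest values without lean mouse 2, 3, 6 or 9, each of which took Mgl2 past 0.05 (exact permutation p = 0.0714).

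**Figure D4:**
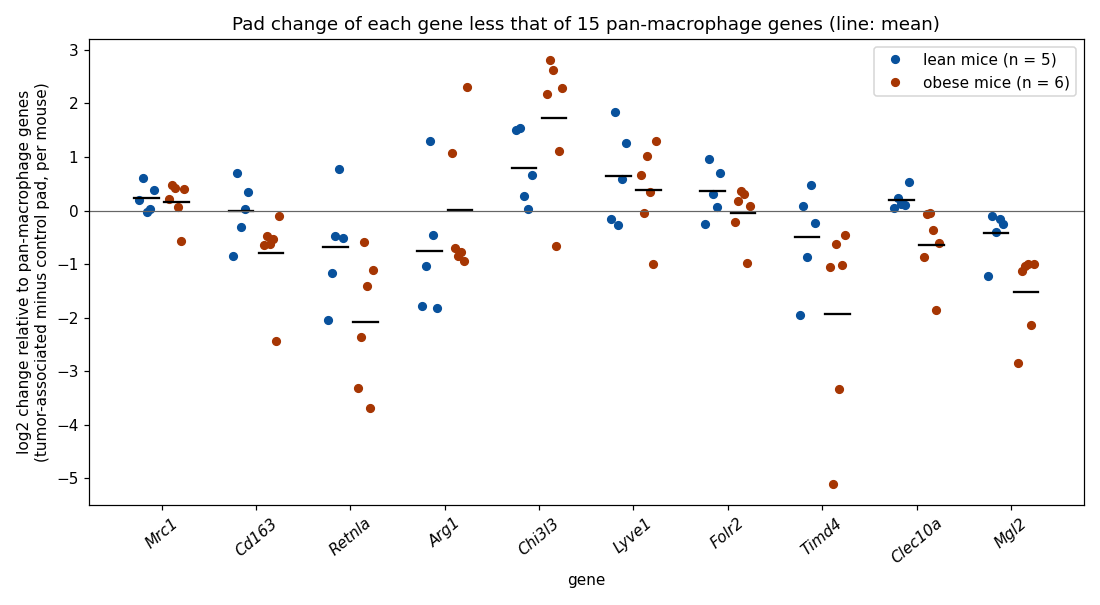
Log2 change of each gene in the tumor-associated minus the control pad, less the mean change of 15 pan-macrophage genes (y axis), for each gene (x axis), with 1 point per lean (n = 5) or obese (n = 6) mouse and a line for the mean. The obese points of Cd163, Retnla, Timd4, Clec10a and Mgl2 all lie below 0, and the lean points of Clec10a all lie above 0.

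The genes also differed in how they varied among libraries of the same group. After subtraction of the group mean, log2 CPM of the 45 pairs correlated with Pearson's r of -0.04 to 0.95 over 22 libraries, which share depth, dissection and the make-up of each pad, so these values are a description. Mrc1, Clec10a and Folr2 varied together (r of 0.93 to 0.95), and Cd163 and Lyve1 with them (r of 0.81 to 0.87). These genes also varied with the mean of the pan-macrophage genes. There r was 0.91 for Mrc1, 0.85 for Clec10a, 0.83 for Folr2, 0.72 for Lyve1 and 0.70 for Cd163, and 0.22 to 0.63 for the others. Retnla and Mgl2 were most like each other among the 10 (r = 0.83). Arg1 and Chi3l3 stood apart, with r of -0.04 between them and of at most 0.50 and 0.67 with any other of the 10. Across all genes tested, the coagulation factor gene F13a1, a gene of resident macrophages, was among the 3 most like Mrc1, Cd163, Folr2 and Clec10a, and Cd209a, a lectin of monocyte-derived cells, was the one most like Mgl2. Retnla was most like Mustn1, Chn2 and Atp2a3, Lyve1 most like Tgfbr2, Alox5 and Ppm1e, and Chi3l3 most like Osm, P2ry12 and Icam2.

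**Figure D5:**
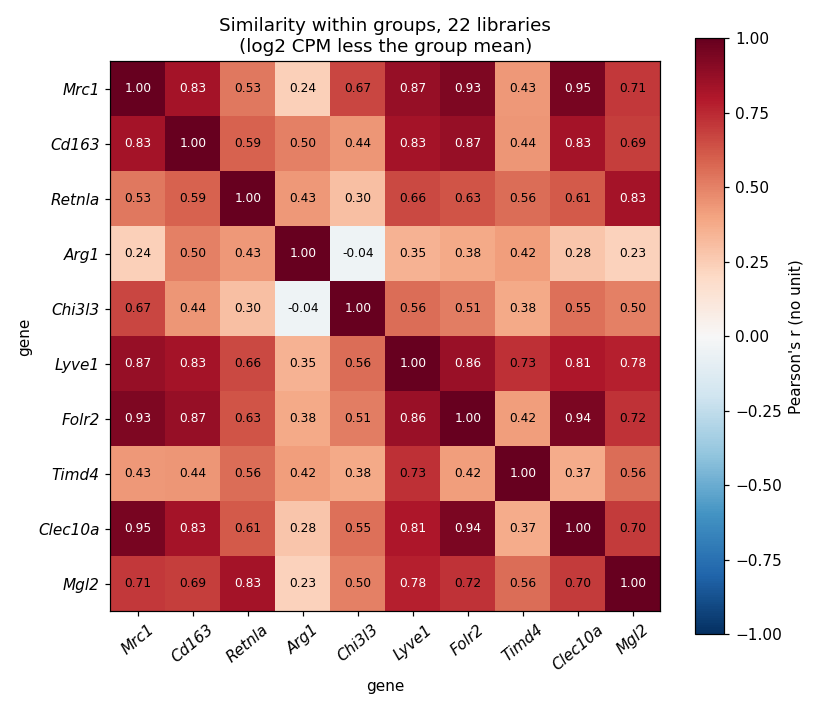
Pearson's r (colour and number, no unit) between log2 CPM of each pair of the 10 genes over 22 libraries after subtraction of the group means, with genes on both axes. Mrc1, Folr2 and Clec10a form the block of highest values, 0.93 to 0.95, and Arg1 has values of -0.04 to 0.50.

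Of 27 companions of resident macrophages, 9 were called higher and none lower in lean mice, and 14 higher and 1 lower in obese mice, beside 4.18% and 54.5% of all genes called in either direction, so that in obese mice the share called was close to that of the table. Their median log2 fold changes were 1.24 and 0.83. The chemokine Ccl8 had the largest rise, 3.19 (SE 0.47, adjusted p = 0.000527 by edgeR) in lean and 2.78 (SE 0.42, adjusted p = 4.46e-05 by edgeR) in obese mice, followed in lean mice by Il10 (2.41) and Siglec1 (2.17), a sialic acid receptor. In obese mice the complement receptor Vsig4 rose by 2.34 and the scavenger receptor Marco fell by 1.88 (SE 0.78, adjusted p = 0.0465 by edgeR). The companion Cd209b was at 74.7 and 83.2 CPM in obese control mice 1 and 3, whose libraries were high in B cell genes. It was at most at 16 CPM in the other obese controls. The part of lymphoid tissue in the Marco level was not tested. Between tumor-associated pads, where 47.0% of all genes were called, 2 companions were higher in obese mice, Marco and Vsig4, and 3 were lower, namely Fxyd2 (-1.78), Gas6 (-1.53) and Igf1 (-0.93).

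Of the alternative activation pathway, 33 of 40 genes were tested. In lean mice 2 were called higher and none lower, namely Msr1 (1.83) and Fn1 (1.17), and in obese mice 7 were called higher and 5 lower, with medians of 0.31 and 0.03. Of all genes tested, 4.18% were called in either direction in lean and 54.5% in obese mice. Msr1, a scavenger receptor, rose by 2.43 and Myc by 2.37 in obese mice, while Arg2, the mitochondrial relative of Arg1, fell by 1.80 (SE 0.42, adjusted p = 0.00138 by edgeR) and Chi3l1 by 1.60. The inducing cytokines themselves were barely detected, with at most 7 counts of Il4 and 3 of Il13 in any library. Of 17 classical activation genes tested, 3 were higher and 1 lower in lean mice, and 10 were higher and 1 lower in obese mice, with Fpr2 (3.46), Il1b (3.41) and Cxcl10 (2.92) rising most. The classical share called in obese mice lay not far above the 54.5% of all genes, and the alternative share lay below it. Nos2, the nitric oxide synthase that shares its substrate with Arg1, fell by 0.92 (SE 0.23, adjusted p = 0.0284 by edgeR) in lean mice and by 0.86 (SE 0.21, adjusted p = 0.00203 by edgeR) in obese mice. Its level in the whole tissue was 2.93 to 12.3 CPM, and which cells it came from was not tested. By flow cytometry, which measures protein in macrophages, the paper reports a larger proportion positive for both CD206 and NOS2 with a tumor. Between tumor-associated pads 6 of 17 classical genes were higher in obese mice and none lower, beside 6 higher and 8 lower of the 33 alternative ones, and both shares called lay below the 47.0% of all genes. Of the alternative genes, Mmp12 (4.47) and Il1rn (3.26) were highest and Chi3l1 (-3.43) and Alox15 (-2.59) lowest.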

How the data were processed

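The 22 RNA-sequencing libraries of IWAT were assigned to diet, pad and mouse by the labels, which accounted for every sample column. To make the table, the authors removed ribosomal RNA, quality-trimmed with prinseq, aligned to mm10 with STAR 2.4.0f and ran HTSeq, and they deposited its raw counts by gene symbol, not normalized. The strand setting, annotation and read length are not given in the sources used here. HTSeq's 5 lines that name no gene took up 57.0% to 65.9% of all reads tabulated and were left out, among them 38.5% to 48.8% on no annotated gene and 15.1% to 18.9% not uniquely aligned, which lowers genes with close copies. At 5759775 to 8598108 counts on genes per library, genes under 1 CPM had few counts. Libraries of a group were no copies of each other (smallest chi-square per degree of freedom 5.95). Nothing says that the sequencing was done in separate batches.

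From these deposited counts, edgeR 4.0.16 in R 4.3.3 fitted its quasi-likelihood model to all 4 groups together, with TMM, its default filter by group and no block, with 5 comparisons and Benjamini-Hochberg adjustment at 0.05. CPM were computed from the counts, and log2 CPM used a prior count of 2. Per-mouse differences used exact permutation tests. The paper's methods name DESeq2, and DESeq2 1.42.0 was an alternative, as were upper-quartile normalization, no filter, a minimum of 10 counts per library, a fit of only the groups compared, a block for the mouse, and leaving out single libraries. A hepatocyte covariate, 2 fits without pairs of obese libraries and the omission of single mice from the per-mouse tests were added after seeing the data. Both pads come from the same mouse, so the mouse pairs the libraries. The deviations of a mouse's pads from their group means correlated with a median r of 0.508 in lean (over 0.1 in 5 of 5 pairs) and 0.168 in obese mice (4 of 6).

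The 10 genes, the 14 marker lists and the tests were chosen with earlier results of these data known, and the B cell list was added after its genes were seen to vary. Named are all 10 genes, their near copies, the called genes with the largest fold change of a list with those that define a cell type, and the 3 most correlated genes of each. Marker lists not described with a gene stand in the closing section. The fits were tested on simulated data. Gene positions come from GENCODE M21 on GRCm38.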

Additional observations from a re-analysis of the deposited data

Results flagged for a closer look

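In 2 of the 40 sets of values (10 genes in 4 groups), 1 library lay far from the others of its group by Dixon's test, about as many as chance gives at 1 in 20. Chi3l3 was at 5.44 CPM in lean tumor-associated mouse 2, against 0.644 to 1.82 CPM in the other lean tumor-associated libraries, and at 5.75 CPM in obese control mouse 3, against 0.62 to 1.29 CPM in the other obese controls. Both values rest on 35 and 46 counts.

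The diets differed in the tumor change relative to the 15 pan-macrophage genes for a pair of genes that are near copies, by an exact permutation test over the mice. The obese minus lean difference was -0.84 for Clec10a (exact permutation p = 0.013), which was positive in 5 of 5 lean and negative in 6 of 6 obese mice, and -1.09 for Mgl2 (exact permutation p = 0.0281), which was negative in all 11 mice. These p-values are unadjusted among 10 such differences. Without the reference the differences were -0.61 for Clec10a (exact permutation p = 0.154) and -0.87 for Mgl2 (exact permutation p = 0.113).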

How the results depend on the processing

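The count of called genes among the 10 was 5 in lean and 5 in obese mice for tumor-associated against control IWAT, and with 1 library left out it ranged from 1 to 6 and from 5 to 7. In lean mice the count was 1 without lean control mouse 6 or lean tumor-associated mouse 2, and 2 without lean control mouse 2 or 3 or lean tumor-associated mouse 0. For obese against lean control IWAT the count of 1 became 2 with DESeq2, 0 with at least 10 counts in every library (8 genes tested) and with the groups compared alone (9 genes tested), 0 without both obese controls high in B cell genes, 2 without both obese tumor-associated libraries farthest on component 1, and 0 to 2 with 1 library left out. Between the tumor-associated pads by diet the count of 3 became 1 with the groups compared alone and was 3 to 7 with 1 library left out. The obese minus lean tumor change had 0 calls under every alternative run. With the mouse as a block, 4 genes were called in lean and 5 in obese mice and 0 for the obese minus lean change. The block changed no call but that of Chi3l3 in lean mice (2.91, edgeR adjusted p = 0.0562).

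Values that turned in sign were not called before or after. In obese tumor-associated against control IWAT, Retnla (-0.21) was at 0.00 without both obese controls high in B cell genes, 0.25 without both farthest obese tumor-associated libraries and -0.43 to 0.01 with 1 library left out, Timd4 (-1.58) was at 1.22 without both controls, and Mgl2 (0.11) was at -0.09 with the block and -0.22 to 0.30 with 1 library left out. In obese against lean control IWAT, Arg1 (0.03) was at -0.18 with the hepatocyte covariate, -0.02 with upper-quartile normalization, -0.31 without both controls and -0.30 to 0.50 with 1 library left out, and Timd4 (2.25) was at -0.57 without both controls. In obese against lean tumor-associated IWAT, Timd4 (0.02) was at -0.22 with the hepatocyte covariate, -0.05 with upper-quartile normalization and -0.53 to 0.25 with 1 library left out, Clec10a (-0.03) was at 0.17 without both farthest libraries and -0.19 to 0.17 with 1 library left out, and Cd163 (0.16) at -0.01 to 0.37. For the obese minus lean change, Timd4 (-2.23) was at 0.59 without both controls, Folr2 (-0.03) at 0.15 without both farthest libraries and -0.17 to 0.16 with 1 library left out, Chi3l3 (0.05) at -0.31 to 0.94 and Lyve1 (0.20) at -0.08 to 0.55. In lean mice Arg1 (0.05) was at -0.23 to 0.53. Per mouse, Arg1 relative to the pan-macrophage genes in obese mice (0.02) was at -0.08 with Emr1 alone. With 1 mouse left out it was at -0.44 to 0.21, Folr2 in obese (-0.04) at -0.12 to 0.14 and Cd163 in lean mice (-0.01) at -0.19 to 0.19, and the plain pad difference was -0.15 to 0.82 for Arg1 in lean, -0.88 to 0.03 for Timd4 in obese and -0.27 to 0.10 for Mgl2 in obese mice. The cause was not tested.

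Among single genes, 1393 values of the fits kept their direction and their side of the threshold, 25 passed the threshold newly and 34 lost it. Lyve1 in lean mice was lost without a filter on low counts (edgeR adjusted p = 0.054). Upper-quartile normalization changed the split of all genes called from 473 higher and 132 lower to 382 and 199 in lean mice, and from 1380 and 1088 to 1068 and 1446 for the control pads by diet. Chi3l3 in lean control IWAT had at most 3 counts per library, which limits its fold changes.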

Other observations

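The other marker lists gave the following counts in tumor-associated against control IWAT, where 4.18% of all genes were called in lean and 54.5% in obese mice. Of 10 adipocyte genes tested, 1 was called lower in lean and 9 in obese mice, with median log2 fold changes of -0.61 and -1.24. Of 8 epithelial genes, none was called in lean mice and 7 were lower in obese mice. Of 6 proliferation genes, none was called in lean mice and 6 were higher in obese mice, with a median of 2.89. Of 10 monocyte genes, 5 were higher in lean and 6 in obese mice, among them Ly6c2 (3.15 in lean and 2.21 in obese mice) and Plac8 (1.89 and 2.28).

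Of 10 dendritic cell genes, none was called in lean mice and 1 was lower in obese mice. Only 1 of 5 eosinophil genes was tested, which was called higher in obese mice alone, and a difference between the diets was not called for it. Of 5 mast cell and basophil genes, 1 was higher in lean and 1 lower in obese mice. Of 8 B cell genes, none was called in lean mice and 3 were lower in obese mice, where the summed level was 2.92 to 756 CPM in control and 4.22 to 167 CPM in tumor-associated IWAT.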
